A study of Mus musculus with 153 samples.

Results

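The integrated stress response and the unfolded protein response were followed here through 10 transcripts: Atf4, Ddit3, Trib3, Asns, Chac1 and Sesn2 for the first, and Xbp1, Herpud1, Sdf2l1 and Creld2 for the second. The genes were chosen by name, by a rule that used no measured value though with earlier results of these data known, and each was read from the probe set that carries its symbol alone. Of the 10 genes, 9 had such a probe set, among 18810 genes measured this way. Ddit3, the stress-induced transcription factor CHOP, shared its only probe set with Mars1, a tRNA synthetase gene, so no value is given for it. The tissue was whole tail skin of 81 male and 70 female mice, 1 array per mouse, taken at 8 weeks of age with no treatment and snap frozen. Mus spretus males had been mated with FVB/N females null for Hras, a growth factor signalling GTPase, and the hybrid daughters with FVB/N males carrying either no intact Hras copy or 1. All mice of both groups therefore carry a mouse-by-mouse mixture of spretus and FVB/N chromosomes. The mice labelled WT (62 males, 52 females) had 2 intact Hras copies and the 37 labelled HET (19 males, 18 females) had 1. The arrays were processed on 3 plates holding 49, 46 and 56 mice, of which 9, 10 and 18 were HET.

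Cells that lack amino acids or are otherwise stressed phosphorylate the translation factor eIF2, which lowers protein synthesis but favours translation of ATF4, a transcription factor that switches on genes for amino acid supply and redox control. Because ATF4 is governed largely at translation, its transcript is not a measure of its activity. Misfolded protein in the endoplasmic reticulum (ER) triggers the unfolded protein response, in which the sensor IRE1 splices the Xbp1 transcript and ATF6 is released by proteases. Both then raise chaperones and degradation factors. PERK, another sensor of the ER, phosphorylates eIF2 and so links both responses. The array does not tell spliced from unspliced Xbp1. In skin, fibroblasts that secrete collagen and the growing hair follicle are known for a high output of protein.

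The tissue carried the markers of skin. Krt5 and Krt14, keratins of basal epidermis, averaged 11.8 ± 0.1 and 11.4 ± 0.1 (SD over all mice) on the log2 scale of the arrays. Krt10 of differentiated epidermis averaged 12.2 ± 0.07, and Col1a1, a dermal collagen, 11.2 ± 0.4. Array medians ran from 4.67 to 4.89.

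The promoters of the members hold some of the sequence elements through which these pathways act. In RefSeq windows from 250 bases before to 50 after each gene's start (assembly GRCm38.p6), 4 motifs were searched on both strands among 32851 windows, which include all 10 genes. The ER stress element, CCAAT and CCACG separated by 9 bases, was in 39 windows (0.119%), and among the members in that of Creld2. The related element ERSE-II, ATTGG and CCACG separated by 1 base, was in 12 windows (0.0365%), that of Herpud1 among them. The core of the C/EBP-ATF element bound by ATF4 heterodimers, TGATGNAA, was in 1304 windows (3.97%), among them those of Asns, Chac1, Herpud1 and Trib3. TGACGTGG, the unfolded protein response element, was in 222 windows (0.676%) and in none of the members' windows. A match is a description of letters, not of binding. The stretches below are shown because they carry the ER stress elements of the genes followed further down, and the cores closest to the ATF4 targets Asns and Chac1. They are on the gene's strand, at chr15:88819496-88819565 (plus), chr8:94386299-94386398 (plus), chr6:7693210-7693289 (minus) and chr2:119351022-119351091 (plus) in turn. Capitals mark the fixed letters of the ER stress elements and the whole C/EBP-ATF core.
Creld2: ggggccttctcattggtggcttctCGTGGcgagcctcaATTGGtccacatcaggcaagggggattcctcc
Herpud1: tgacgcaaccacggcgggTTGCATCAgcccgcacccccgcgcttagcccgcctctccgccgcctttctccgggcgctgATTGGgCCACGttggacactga
Asns: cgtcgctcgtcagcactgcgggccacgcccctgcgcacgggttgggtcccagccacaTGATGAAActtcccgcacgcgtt
Chac1: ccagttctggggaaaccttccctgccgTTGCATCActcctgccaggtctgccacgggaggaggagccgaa
The element of Creld2 lies antisense and begins 126 bases before the start. That of Herpud1 lies sense, 52 bases before the start, with a C/EBP-ATF core antisense farther upstream. The core of Asns lies 23 bases before the start, that of Chac1 antisense at 193 bases, and that of Trib3 begins 14 bases after its start base.

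Chac1 had the widest range of levels from mouse to mouse, and the other 8 genes ranged over between 1.72-fold and 3.03-fold. Atf4, the master transcription factor of the response, had a lowest value of 6.63, a median of 6.999 and a highest of 7.45 over all mice. From the lowest to the highest mouse this is a 1.77-fold range. Among the targets of ATF4, Trib3, a pseudokinase that dampens the response, ran from 4.39 through a median of 5.19 to 5.72. Asns, which makes asparagine, ran from 8.51 through 9.04 to 9.57. Sesn2, a sestrin that restrains mTORC1 when leucine is short, ran from 6.25 through 6.78 to 7.37. The ranges of these 3 genes were 2.51-fold, 2.09-fold and 2.17-fold. Chac1, an enzyme that degrades glutathione, ran from 6.30 through 7.87 to 9.17, which is 7.33-fold. On the ER side, Xbp1, the transcription factor gene that IRE1 splices, ran from 9.16 through 9.58 to 9.97. Herpud1, an ER membrane protein of the degradation machinery, ran from 7.70 through 8.25 to 8.66. Sdf2l1, a partner of the ER chaperone BiP, ran from 5.56 through 6.27 to 7.16, a 3.03-fold range against 1.76-fold for Xbp1 and 1.94-fold for Herpud1. Creld2, an ER protein induced by stress, ran from 7.60 through 7.96 to 8.39 (1.72-fold). After genotype, sex and plate were removed, the SD of Chac1 exceeded that of 98.9% of the genes nearest to it in mean level. The corresponding figure was 84.7% for Asns, between 62.1% and 75.2% for Creld2, Xbp1, Sesn2, Sdf2l1 and Herpud1, 26.7% for Trib3 and 17.4% for Atf4. Levels of different probe sets are not set against each other, because each has its own affinity.

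**Figure D1:**
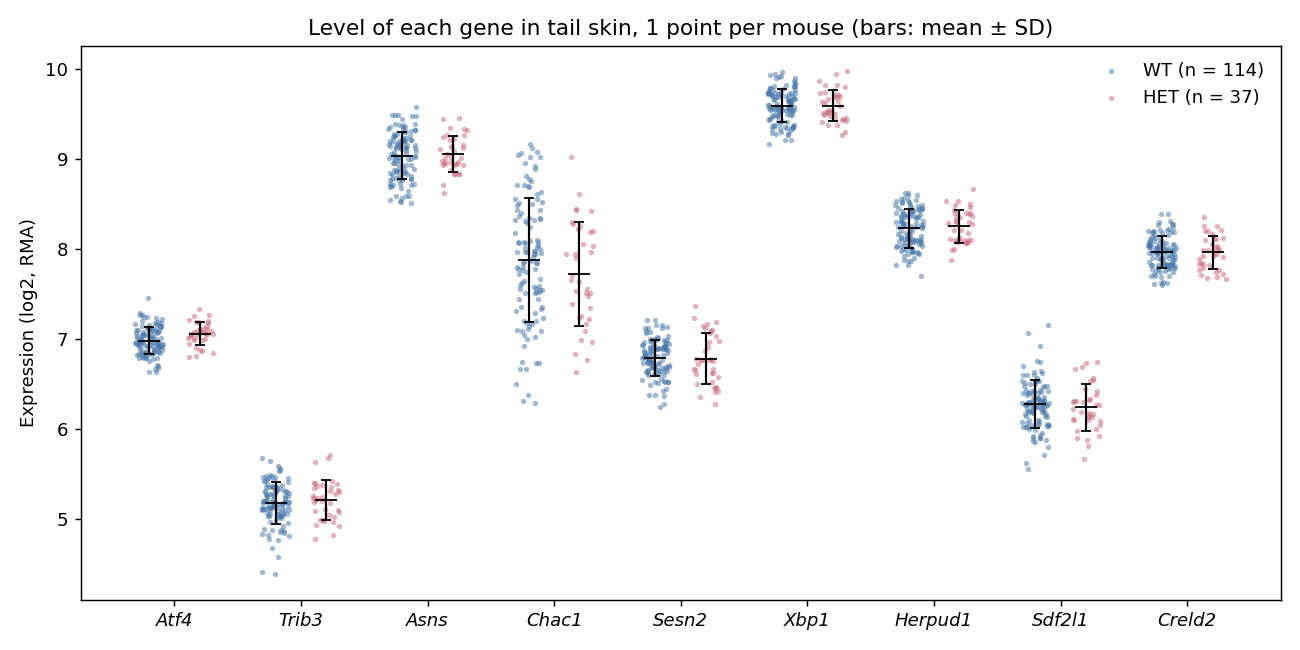
Log2 expression (vertical axis, RMA) of the 9 measured genes in tail skin, 1 point per mouse, with WT mice in blue and HET mice (37) in red and bars for mean ± SD. The 2 groups overlap for every gene, and Chac1 spreads widest, from 6.30 to 9.17.

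The first comparison asked whether skin with 1 intact Hras copy differed from skin with 2. None of the 9 genes was called, that is, passed an adjusted p of 0.05 by limma with sex and plate in the model. Over all genes 21 of 18810 were called (0.112%), so the members' count is near the background. At an unadjusted p under 0.05 stood 1 of the 9, Atf4, against 6.57% of all genes. The median difference, HET minus WT, was 0.01 on the log2 scale over the 9 genes and -0.0001 over all genes, with 5 of the 9 above 0 against 49.9% of all genes.

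Atf4 came closest. Its lowest, median and highest values were 6.63, 6.97 and 7.45 in WT mice and 6.80, 7.06 and 7.33 in HET mice, so the groups overlapped over the whole HET range. The means were 6.98 ± 0.15 and 7.06 ± 0.13 (SD). The difference was 0.08 ± 0.03 (SE; 95% interval 0.02 to 0.13; limma p = 0.0077, adjusted p = 0.58), a 1.05-fold level. It was 0.02, 0.13 and 0.08 on plates 1, 2 and 3. In males it was 0.13 and in females 0.02, and the genotype by sex term did not pass (0.10 ± 0.06, SE; adjusted p = 1.00 by limma).

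Chac1 had the largest estimate and the widest error. Its lowest, median and highest values were 6.30, 7.93 and 9.17 in WT mice and 6.63, 7.65 and 9.02 in HET mice. The HET mice lay within the WT range, and the difference was -0.15 ± 0.12 (SE; 95% interval -0.39 to 0.10). The markers of hair shaft and inner root sheath lay on the same side, with 7 of 7 below 0 in HET mice, a median difference of -0.24 and none called. Their mean log2 level ran from 7.86 through 9.91 to 11.14 in WT mice and from 8.26 through 9.53 to 11.04 in HET mice, and none was listed at 0. Mast cell markers were also all below 0 in HET mice (6 of 6). Melanocyte (5 of 5) and differentiated epidermis markers (4 of 4) were all above 0. The part of these lists in the Chac1 value was not tested for genotype.

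For the other 7 genes the intervals were narrower than that of Chac1 and wider than that of Atf4. Trib3 differed by 0.04 ± 0.04 (SE; interval -0.05 to 0.13), and Asns by 0.01 ± 0.05 (SE; interval -0.08 to 0.11). Sesn2 differed by -0.01 ± 0.04 (SE; interval -0.09 to 0.08). Of the ER genes, Xbp1 differed by 0.01 ± 0.03 (SE; interval -0.06 to 0.07), Herpud1 by 0.02 ± 0.04 (SE; interval -0.05 to 0.10) and Sdf2l1 by -0.03 ± 0.05 (SE; interval -0.13 to 0.07). Creld2 stood at -0.0002 ± 0.03 (SE; interval -0.07 to 0.07). Apart from Chac1, the bounds farthest from 0 were 0.13 for Atf4 and -0.13 for Sdf2l1.

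In the rest of the pathway 1 gene was called between genotypes. Nupr1, a stress-induced chromatin protein and ATF4 target, averaged 8.36 ± 0.24 (SD) among WT mice. Among HET mice it was higher, at 8.58 ± 0.21 (SD), by 0.23 ± 0.04 (SE; limma adjusted p = 0.0013), while 0.0319% of all genes were called higher. The estimate was above 0 on each plate (0.14, 0.32 and 0.22). Nupr1 lies on chromosome 7, as Hras does. In the cross described, every WT mouse must have received the intact spretus Hras from its mother, whereas HET mice need not have. The genotype comparison therefore does not separate Hras copy number from spretus alleles linked to Hras. The inheritance of chromosome 7 was not analysed here, and the part of linked alleles in the Nupr1 difference was not tested. Of the other 26 measured ATF4 targets, none was called, and the list's median difference was -0.01. No gene was called among 13 eIF2 kinases, phosphatase subunits, eIF2B subunits and regulators of the kinase GCN2 (Impact and Gcn1; median -0.02), 12 genes for aminoacyl-tRNA synthetases and the tRNA exporter Xpot (median 0.01) or 5 ER stress sensors and their proteases (median 0.004). The same held for 19 ER chaperones and folding enzymes (median 0.01), 17 genes of ER-associated degradation (median 0.01), 18 of ER translocation and vesicle transport (median -0.01) and 8 paralogs of the members (median -0.005).

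Between the sexes, 680 of 18810 genes were called (3.62%) but again none of the 9. At an unadjusted p under 0.05 stood 1 of the 9, Chac1, against 16.4% of all genes. Its lowest, median and highest values were 6.66, 7.96 and 9.06 in the 70 females and 6.30, 7.66 and 9.17 in the 81 males, so the sexes overlapped almost throughout. The difference, male minus female, was -0.24 ± 0.11 (SE; 95% interval -0.45 to -0.03; limma p = 0.023, adjusted p = 0.21). It was -0.01, -0.45 and -0.28 on plates 1, 2 and 3. Here too the hair shaft and inner root sheath markers lay on the same side, with 7 of 7 below 0 in males (median -0.30). Of them 1 was called lower, while 2.51% of all genes were called in that direction. Their mean log2 level ran from 7.93 through 9.995 to 11.14 in females and from 7.86 through 9.66 to 11.13 in males. They were not alone on that side. All adipocyte (5, with 2 called), skeletal muscle (6), endothelial (5) and macrophage and dendritic markers (6) were below 0 in males. So were 5 of 6 mast cell markers, 3 of them called. The part of these lists in the sex value of Chac1 was not tested. The other 8 genes differed by between -0.07 (Sdf2l1) and 0.05 (Asns). The members' median was 0.03, with 7 of 9 above 0, against -0.01 and 44.9% for all genes.

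Among the other ATF4 targets, 4 of 27 were called, all higher in males, while 1.1% of all genes were called in that direction. Aldh1l2, a mitochondrial folate enzyme, averaged 6.001 ± 0.26 (SD) among females against 6.23 ± 0.28 (SD) among males, a difference of 0.23 ± 0.04 (SE; limma adjusted p = 0.0001). Psat1, of the serine synthesis pathway, differed by 0.14 ± 0.03 (SE; adjusted p = 0.0033), and Slc6a9, a glycine transporter, by 0.12 ± 0.04 (SE; adjusted p = 0.031). Phgdh, which opens serine synthesis, was the fourth (0.10 ± 0.03, SE; adjusted p = 0.047). The list's median was 0.02, and 19 of its 27 genes lay above 0. In the ER lists, Ssr4, a subunit of the translocon-associated complex, was higher in males (0.09 ± 0.02, SE; adjusted p = 0.0013), as was Dnajc10, an ER disulphide reductase (0.09 ± 0.02, SE; adjusted p = 0.011). Sec61a1, the pore of the translocon, was lower in males (-0.07 ± 0.02, SE; adjusted p = 0.037), and so was Herpud2, the paralog of Herpud1 (-0.07 ± 0.02, SE; adjusted p = 0.022). Calls of lower genes in males made up 2.51% of all genes. The calls of Sec61a1 and Herpud2 were lost when each array was centred on its median (adjusted p = 0.13 and 0.12). None of the kinase, synthetase, sensor or degradation genes was called for sex.

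No member was called between plates by limma's F test, nor was any gene of the pathway lists, and none of the 9 had an unadjusted p under 0.05. Over all genes the F test of the 3 plates called 4 (0.0213%), and 0.808% had an unadjusted p below 0.05. That share is lower than a threshold of 0.05 would give with no plate difference at all. The sources used here do not state whether plate differences were removed before deposit. The lack of plate calls therefore does not show that plate had no influence on the samples. The mean of Chac1 was 7.92, 7.81 and 7.78 on plates 1, 2 and 3 with SDs of 0.69, 0.67 and 0.63. Among the other 8 genes the model's plate contrast farthest from 0 was that of Sdf2l1, at -0.05 ± 0.05 (SE, plate 3 minus plate 1). No genotype by sex, genotype by plate or sex by plate term was called for a member, nor for any of the 18810 genes (0%), and none of the 9 had an unadjusted p under 0.05. Over all genes 4.76%, 9.07% and 5.74% had unadjusted p-values below 0.05 in limma, in turn.

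The other question was whether the genes rose and fell together from mouse to mouse. They did so weakly. Over the 36 pairs of the 9 genes, Pearson's r on residuals after genotype, sex and plate had a median of 0.06 and ran from -0.24 to 0.30, with 24 pairs above 0. All pairs of measured genes had a median of 0.004, with 95% between -0.23 and 0.26. The median was 0.06 for the 10 pairs among Atf4 and its targets, 0.07 for the 6 among ER genes and 0.06 for the 20 across the 2 responses. By a two-sided permutation test with 100000 draws and adjustment over 36 pairs, 11 pairs were called, 7 positive and 4 negative. An r of at least that size, 0.199 in either direction, was found in 9.56% of all gene pairs and 30.6% of the member pairs. By Spearman's rho 5 pairs were called, all positive. They were Asns with Xbp1, Sesn2 and Sdf2l1, Trib3 with Herpud1, and Sesn2 with Sdf2l1. Each of the 11 pairs had the same sign on all 3 plates and in both sexes, and 9 of the 11 in both genotypes. Asns with Chac1 had an r of -0.32 in WT mice and 0.12 in the 37 HET mice, and Chac1 with Herpud1 -0.28 and 0.12. Sesn2 with Sdf2l1 had 0.39 in WT mice and 0.003 in HET mice. The differences in r between genotypes and between sexes were tested over all 36 pairs (72 tests) by permuting each label within plate and the other label, a test added after the data were seen. By genotype 3 pairs had an unadjusted permutation p under 0.05 and none by sex, and no difference passed adjustment.

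Atf4 had no called relation with its targets. Its r was 0.11 with Trib3 (p = 0.16), 0.07 with Asns (p = 0.37), 0.01 with Chac1 (p = 0.90) and -0.01 with Sesn2 (p = 0.95), all by permutation test and none called. With Trib3 it was 0.23 in WT mice and -0.38 in HET mice, a difference that did not pass adjustment (permutation p = 0.0027, adjusted p = 0.19). With Asns it was 0.21 in males and -0.12 in females (permutation p = 0.066, adjusted p = 0.83). Its lone called partner was Xbp1, and that relation was negative (r = -0.20, rho = -0.18, permutation p = 0.014, adjusted p = 0.046). Leaving out the 2 mice with the most extreme Atf4 values gave -0.15, which was not called. By rho the pair was not called either (adjusted permutation p = 0.082).

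Asns and Sdf2l1 had 4 called partners each. Asns went with Xbp1 at r = 0.30 (rho = 0.31, permutation p = 0.00026, adjusted p = 0.0047), at 0.32, 0.31 and 0.27 on the 3 plates. The r of Asns was 0.24 with Sdf2l1 (adjusted permutation p = 0.021) and 0.23 with Sesn2 (adjusted permutation p = 0.025). With Chac1 it ran the other way (r = -0.24, adjusted permutation p = 0.021), though not called by rho (-0.21, adjusted permutation p = 0.058). Sdf2l1 and Creld2, both ER stress targets, had an r of 0.29 (rho = 0.20, permutation p = 0.00026, adjusted p = 0.0047), which was 0.22 and still called when the 2 most extreme mice were left out. By rho this pair was not called (adjusted permutation p = 0.065). It was 0.48, 0.09 and 0.26 on plates 1, 2 and 3. Sdf2l1 also went with Sesn2 (r = 0.27, adjusted permutation p = 0.0096) and Xbp1 (r = 0.22, adjusted permutation p = 0.028). Trib3 and Herpud1 had an r of 0.24 (rho = 0.27, adjusted permutation p = 0.021). Chac1 was negative with Herpud1 (r = -0.21) and Trib3 (r = -0.20), with adjusted permutation p-values of 0.044 and 0.046. By rho neither pair was called (adjusted permutation p = 0.095 and 0.091). Trib3 and Chac1 both lie on chromosome 2, and the part of linked alleles in their r was not tested. Xbp1 and Herpud1, which share a response, had an r of 0.01.

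**Figure D2:**
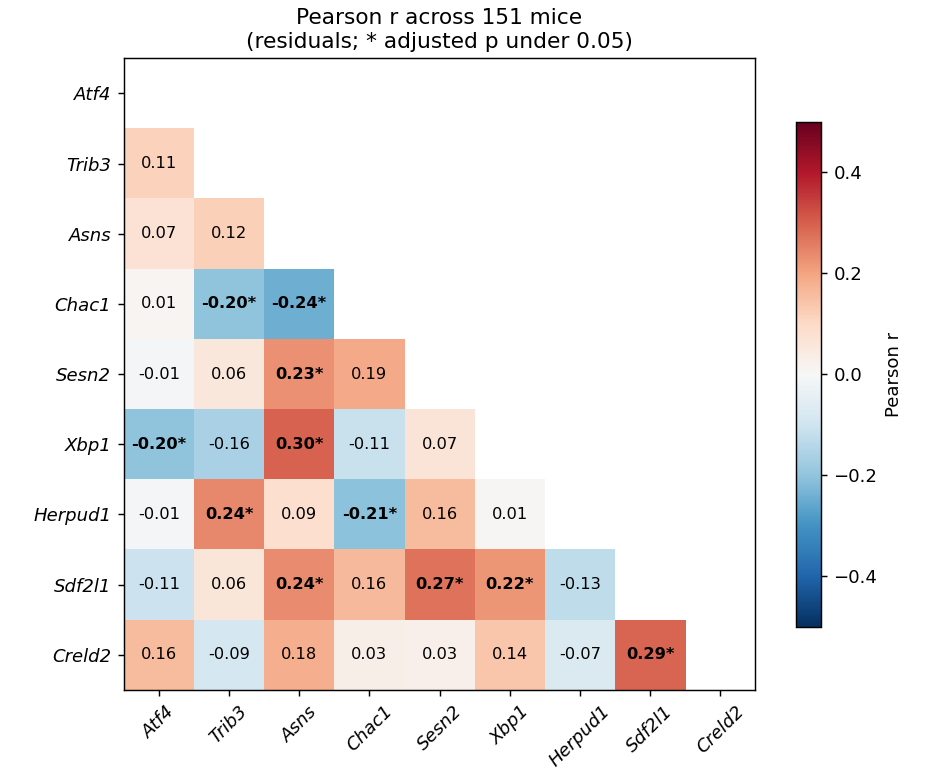
Pearson's r across mice for each of the 36 pairs of the 9 genes (axes), on residuals after genotype, sex and plate, with colour from blue (negative) to red (positive) and a star where the permutation p adjusted over 36 pairs is under 0.05. The values run from -0.24 to 0.30, and the column of Atf4 holds a single star, with Xbp1.

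The genes whose pattern across mice was most like that of each member were named as the 3 with the highest r on the same residuals. These values were selected as the highest over all measured genes and carry no test. Chac1 stood apart in having partners of very high r: Krtap4-7 (0.91), Krtap1-3 (0.91) and Crnn (0.90). The first 2 encode keratin-associated proteins of the hair shaft. The 20th gene in order still had an r of 0.85, the list holds Krt27 and Tchh of the inner root sheath, and no gene of the 20 lies on chromosome 2, where Chac1 lies. In the other members the first r was between 0.35 (Trib3 with Snrnp25) and 0.68 (Herpud1 with Ces1f).

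Herpud1 and Creld2 were most like genes of their own chromosomes. The 3 genes nearest to Herpud1 in pattern were Ces1f (0.68) and Ces1g (0.64), which encode carboxylesterases, and Kars (0.63), a tRNA synthetase. All 20 of its top genes lie on chromosome 8, which holds 4.74% of measured genes, and 11 of them lie within 100 measured genes of Herpud1. Creld2 was most like Alg10b (0.53) and Alg12 (0.48), of the N-glycan assembly line in the ER, and Pycrl (0.48), of proline synthesis. On chromosome 15, its own, lie 13 of its top 20 genes, with 9 within 100 places, while that chromosome holds 3.77% of measured genes. Its top 20 also held 4 ER chaperone genes from other chromosomes, Hsp90b1, Hspa5, Pdia6 and Calr. Of the genes within 100 places of Herpud1, 17.5% had an r above the 97.5th percentile of its own distribution. The share was 10.9% farther along chromosome 8 and 2.01% on other chromosomes. For Creld2 these shares were 11.5%, 8.06% and 2.25%, and for Asns 10.2%, 3.04% and 2.42%. For Xbp1 they were 9.93%, 3.49% and 2.36%. Atf4 had 7.0%, 5.11% and 2.38%, and Trib3 6.0%, 3.21% and 2.40%. The shares were lower near Sesn2 (4.5%, 2.52% and 2.48%), Chac1 (3.5%, 1.54% and 2.57%) and Sdf2l1 (3.0%, 2.68% and 2.49%). Neighbouring genes are inherited together in a backcross, but the mice's genotypes along the chromosomes were not analysed here, and the part of linked alleles in these values was not tested.

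**Figure D3:**
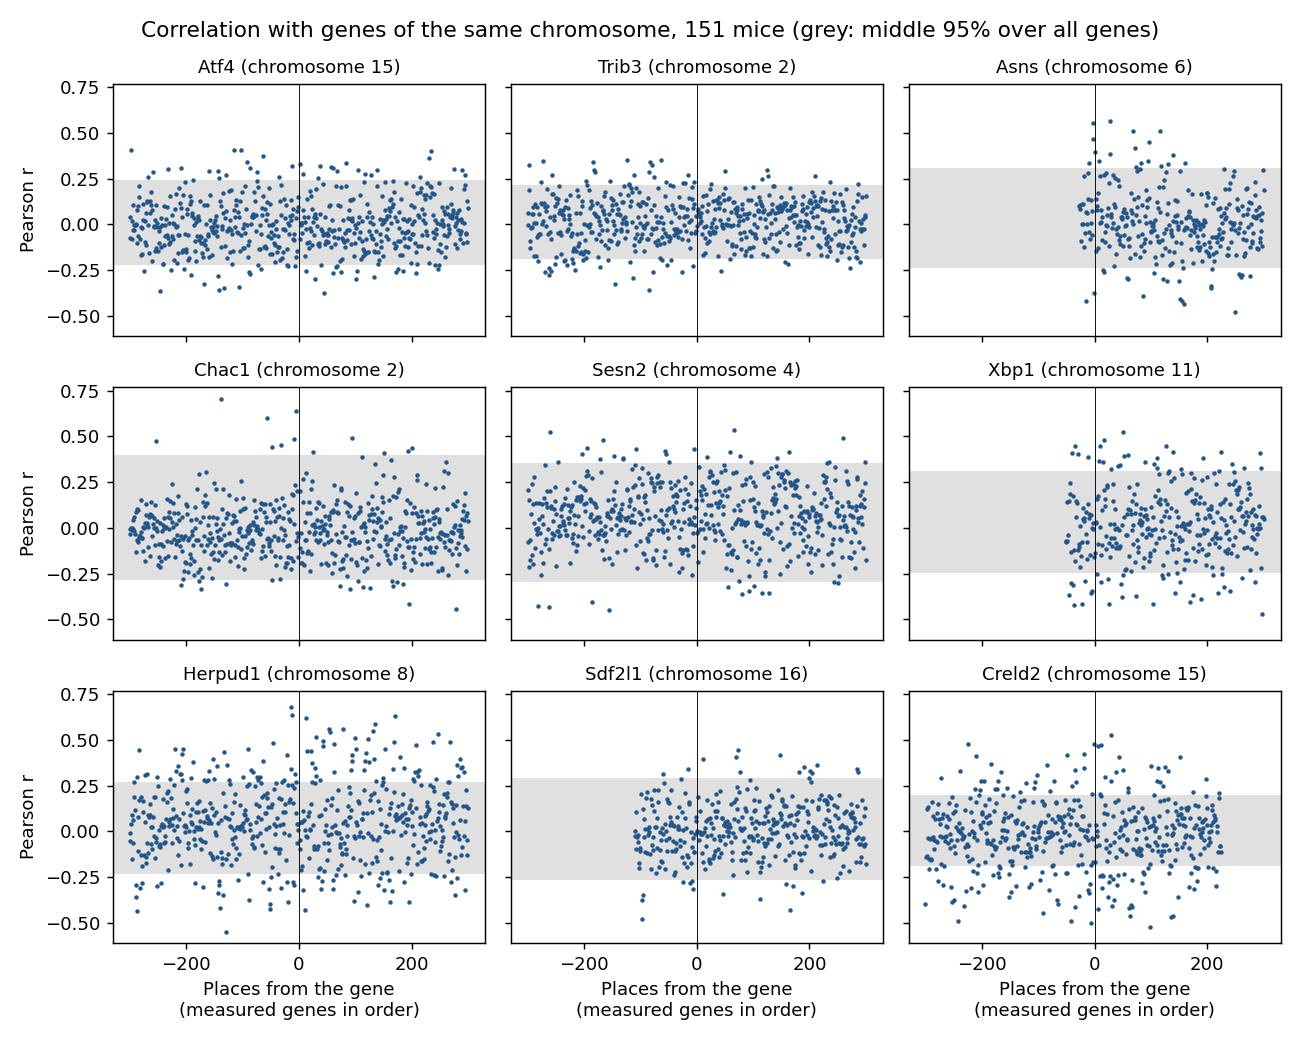
Pearson's r (vertical axis) of each of the 9 genes with up to 300 measured genes on either side of it on its own chromosome, 1 point per gene, against the number of places from it (horizontal axis, in gene order). Grey bands hold 95% of the r with all genes, and points above the band are common around Herpud1 (17.5% within 100 places) and Creld2 (11.5%).

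The remaining members had mixed partners. Sdf2l1 was most like Fscn1 (0.55), an actin-bundling protein, Calr (0.54), an ER chaperone, and Shmt2 (0.54), a mitochondrial serine enzyme and ATF4 target. None of its top 20 genes lies on chromosome 16, its own. Sesn2 was most like Ovol1 (0.62), a transcription factor of epidermal differentiation, Pgam1 (0.60), of glycolysis, and Slc37a2 (0.59). Xbp1 was most like Vat1 (0.55) and Aldh3a2 (0.53), a fatty aldehyde dehydrogenase, both on its chromosome 11, and Sec23b (0.52), a coat protein of vesicles leaving the ER. Asns was most like Capza2 (0.57) and Dlx5 (0.55), both on its chromosome 6, and Phf5a (0.52), of the spliceosome. Atf4 was most like Fbl (0.48), of nucleolar RNA processing, Suclg1 (0.48), of the citric acid cycle, and Pprc1 (0.46). Trib3 had the weakest leaders, Snrnp25, Dtd1 and Cdc25b, all at 0.35. Of its top 20, 8 lie on chromosome 2, its own, Dtd1 and Cdc25b among them, and that chromosome holds 8.68% of measured genes. Genes of the own chromosome made up 5 of the top 20 of Asns, 4 of Xbp1, 3 of Atf4 and 2 of Sesn2. These chromosomes hold 5.57%, 7.81%, 3.77% and 5.92% of measured genes in turn.

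The members were also set against the lists of the wider pathway, where their relations overlapped. Sdf2l1 and Creld2 had a positive r with all 19 ER chaperones and folding enzymes, with medians of 0.28 and 0.21. Sdf2l1 reached 0.54 with Calr and 0.49 with Hsp90b1, and Creld2 0.44 with Hsp90b1 and 0.41 with Hspa5, the BiP gene. Above the 97.5th percentile of each gene's own distribution lay 9 and 10 of the 19. Herpud1 was positive with 1 of the 19 (median -0.10). With the 17 genes of ER-associated degradation it was positive in 14 (median 0.05) and Xbp1 in 12 (median 0.13). There Sdf2l1 and Creld2 were positive with 10 and 11 (medians 0.01 and 0.04). With the 5 ER stress sensors and their proteases Herpud1 was positive in all 5 (median 0.10), as were Trib3 (0.04) and Sesn2 (0.08). No r of Herpud1 in these 2 lists passed the 97.5th percentile of its own distribution. Xbp1 was positive with 14 of them (median 0.10), up to 0.42 with Canx, and Asns with 16 (median 0.11). With the translocation and vesicle transport genes Xbp1 had a median of 0.20 (16 of 18 positive), with Sec23b at 0.52, and Asns 0.19 (17 of 18 positive). Sdf2l1 and Creld2 were positive with 15 of these 18 each (medians 0.16 and 0.11). Sesn2 and Sdf2l1 were positive with all 12 genes of the synthetase list, which includes Xpot, both with a median of 0.30, led by Cars for Sesn2 (0.48) and Yars for Sdf2l1 (0.51). Chac1 and Asns were also positive with all 12 (medians 0.20 and 0.16). Atf4 was positive with 10 of the 12 (median 0.18), with Gars at 0.42, and with 20 of 27 other ATF4 targets (median 0.09), where Cebpb, a C/EBP partner, led at 0.33. Xbp1 was negative with 9 of the 12 genes of the synthetase list (median -0.09). These r share arrays and normalization and are given as descriptions. The median r with all genes lay between -0.01 and 0.03 for each member.

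**Figure D4:**
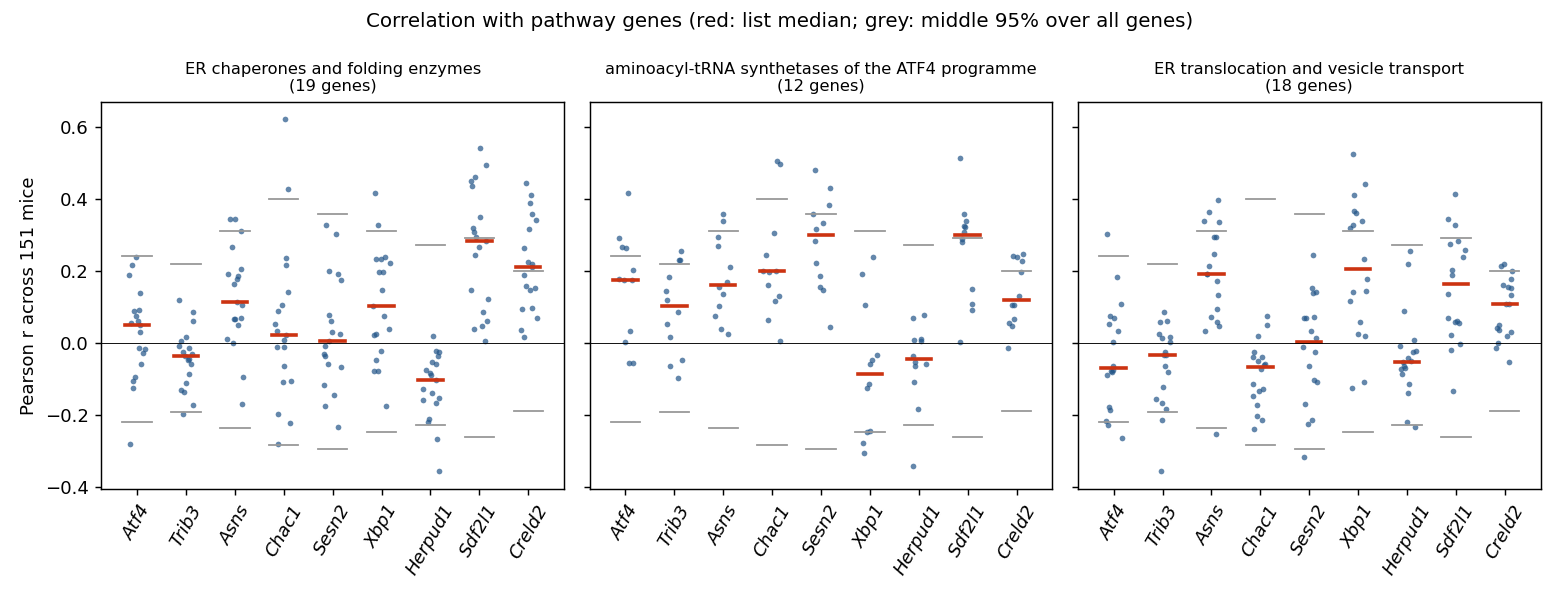
Pearson's r across mice of each of the 9 genes (horizontal axis) with the genes of 3 pathway lists, 1 point per gene, with the list median in red and grey marks at the limits of the middle 95% over all genes. For the 19 ER chaperones and folding enzymes the medians of Sdf2l1 (0.28) and Creld2 (0.21) lie highest.

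Cell type markers moved with several members. Whole skin does not tell fewer cells of a type from less RNA per cell. Each of the 9 genes was set against the mean standardised residual of 14 marker lists (126 relations), and 18 were called by permutation test, 8 positive and 10 negative. Chac1 and the 7 hair shaft and inner root sheath markers had an r of 0.84 (rho = 0.84, permutation p = 1e-05, the smallest the draws allow, adjusted p = 0.0004). It was 0.87, 0.89 and 0.75 on plates 1, 2 and 3. Leaving out the 2 mice with the most extreme marker values gave 0.83. Single markers ran from 0.71 (Krt35) to 0.88 (Krt27). The r of Chac1 was 0.62 with Ero1a, an ER oxidase, 0.59 with Eif2b4, an eIF2B subunit, and 0.57 with Slc7a11, the cystine transporter. The r of these 3 genes with the hair marker value was 0.63, 0.60 and 0.67. When the hair marker value was removed besides genotype, sex and plate, an alternative added after the data were seen, Chac1 kept none of its 3 called negative relations with other members. The r with Asns became -0.08, with Trib3 -0.13 and with Herpud1 0.08, and that with Sesn2 (0.25) was then called. Because the hair value had an r of 0.84 with Chac1, its removal also takes out much of the variation of Chac1 itself. These changes therefore cannot tell hair cell content from shared regulation.

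**Figure D5:**
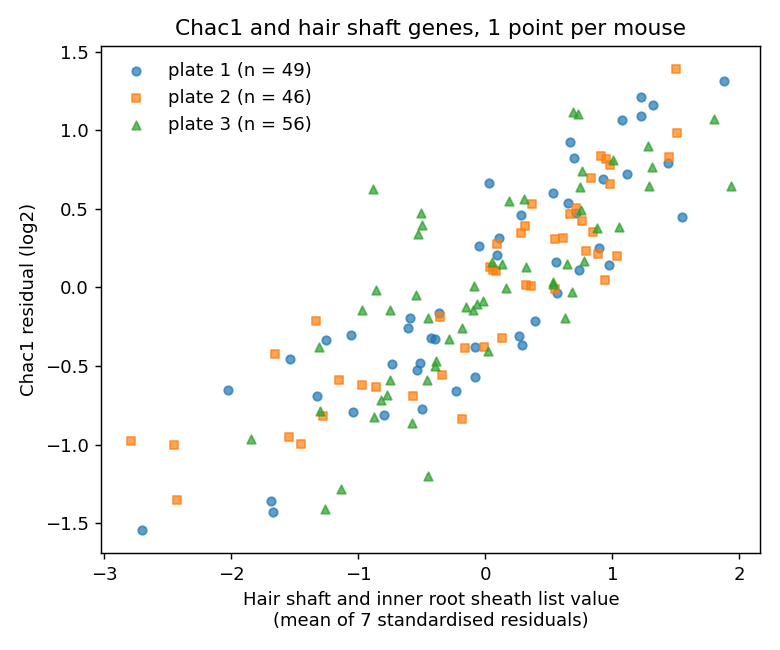
Residual log2 level of Chac1 (vertical axis) against the mean standardised residual of 7 hair shaft and inner root sheath markers (horizontal axis), 1 point per mouse, with colour and shape for the 3 plates. The points rise together on each plate (r of 0.87, 0.89 and 0.75).

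Sesn2 and Xbp1 were opposed in their markers. Sesn2 was negative with endothelial markers (r = -0.45, rho = -0.45, adjusted permutation p = 0.0004; -0.46, -0.57 and -0.37 on the 3 plates), with 5 of 5 below 0. It was also negative with muscle (-0.26), mast cell (-0.24) and fibroblast markers (-0.23), and positive with differentiated epidermis (0.27). Xbp1 was positive with T lymphocyte (0.36), macrophage and dendritic (0.31), endothelial (0.30), fibroblast (0.29) and mast cell markers (0.23), and negative with differentiated epidermis (-0.27). On plate 3 its r with the macrophage, endothelial and mast cell values was 0.08, 0.06 and 0.03. Sdf2l1 was negative with sebaceous gland markers (r = -0.35, rho = -0.29, adjusted permutation p = 0.0006). The remaining called relations were Herpud1 and Asns with hair markers (-0.30 and -0.24), Chac1 with macrophage and dendritic markers (-0.32), Atf4 with adipocyte markers (-0.25) and Trib3 with differentiated epidermis (0.24). No marker of these lists was listed at 0 throughout, and the part of cell makeup in the members' mutual correlations was not tested. Removing the hair value does not test it, because that value is made of transcripts from the same arrays.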

How the data were processed

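Tail skin RNA of 153 mice was hybridised to Affymetrix arrays, 1 per mouse. The deposited values are log2 expression, made with RMA per the submitters' processing notes. The sources used here give no version, array build or plate adjustment. The mice are separate animals, and their number limits the precision. The labels mark 2 arrays (WT males, plate 2) as outliers, and the other 151 were used: 114 WT and 37 HET. Of 35556 rows, 171 were empty. Probe sets with 1 symbol (21201) were kept, those with several (1881) or none (12303) were not, and the one with the highest mean stood for each of 1385 genes with several. Each member had 1, so 36 pairs were tested and not the planned 45. Genotype labels were not checked against the targeted transcript, which is not reported here. Whether spretus alleles under the probes move these values was not tested.

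Group differences came from limma 3.58.1 under R 4.3.3 (genotype, sex and plate; eBayes with a trend; Benjamini-Hochberg over 18810 genes; no filter on low values), with interactions in further models. Correlations used residuals, in Python 3.11.15 with numpy 2.4.6, scipy 1.17.1 and pandas 2.3.3. The genotype, sex and plate 3 coefficients, the pair correlations and the test of differences in r were run on simulated data. The other tests were not described as checked in this way. Named genes are the members, their paralogs where called, up to 3 called genes per pathway list with the smallest p, and the 3 most like genes of each member; Phgdh, the extremes of lists and the top-20 genes named were chosen after their values were seen. Marker lists with under 3 measured genes (nerve) were left out. Members and lists were chosen with earlier results of these data known. Alternatives were the arrays used, scaling, probe set rule, low-value filter, variance model, covariates, and each plate, each sex or WT mice alone.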

Additional observations from a re-analysis of the deposited data

How the results depend on the processing

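No member was called for genotype, sex or plate in any alternative: the 2 outlier arrays included, median centring, quantile normalization, the mean of probe sets, a filter at the lower quartile of genes, no variance trend, genotype alone in the model, or single plates, sexes or WT mice alone. Each member had 1 probe set, so the mean of probe sets left the members' values as they were and could not change their r. Over single genes and pairs, 71 alternative values lost a call, 39 changed sign and 340 kept their sign and call status. Those that lost a call include genes of the pathway lists, of which only Sec61a1 and Herpud2 are detailed above. Phgdh was not run in the alternatives. The number of called pairs was 11, and 10, 11, 12, 9, 11 and 8 with no covariate removed, all arrays, median centring, quantile normalization, mean probe sets and without 2 mice, of which 10, 11, 10, 9, 11 and 7 were among the 11. It was 1, 0 and 2 on plates 1, 2 and 3 alone, where fewer mice were tested, and 9 with the hair marker value removed, an alternative added after the data were seen, 7 of them among the 11. Asns with Xbp1, Sdf2l1 with Creld2, Sesn2 with Sdf2l1, Trib3 with Herpud1 and Asns with Sdf2l1 were called by Pearson's r in each of these settings that kept all plates. By Spearman's rho Sdf2l1 with Creld2 was not called (adjusted permutation p = 0.065), and within HET mice Sesn2 with Sdf2l1 had an r of 0.003.

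Some values changed sign, most of them small. For genotype, Creld2 (-0.0002) was 0.0029 with all arrays, 0.0038 median-centred, 0.0040 quantile-normalized, 2.5e-05 with genotype alone, 0.048 on plate 2 and 0.0066 in males. On plate 2 alone Asns was -0.062, Herpud1 -0.062, Trib3 -0.020 and Xbp1 -0.031. Xbp1 was also -0.022 on plate 3 and -0.042 in females. Sdf2l1 was 0.030 on plate 1 and 0.0058 in males, and Sesn2 0.040 on plate 1, 0.038 on plate 3 and 0.052 in males. For sex, Creld2 was -0.0063 on plate 3, Herpud1 -0.040 on plate 1, Sesn2 -0.042 on plate 2 and -0.0052 in WT mice, and Xbp1 -0.086 on plate 1 and -0.020 in WT mice. None of these was called. Among correlations, Chac1 with Herpud1 (called, r = -0.21) was 0.081 with the hair value removed. Atf4 with Trib3 was -0.055 on plate 2. Atf4 with Chac1 was -0.030 with no covariate removed, -0.018 with all arrays, -0.017 median-centred, -0.055 on plate 1, -0.0045 without 2 mice and -0.049 with the hair value removed. Atf4 with Sesn2 was 0.015 with all arrays, 0.055 median-centred, 0.098 on plate 2, 0.036 on plate 3 and 0.0014 without 2 mice. Xbp1 with Herpud1 was -0.028 quantile-normalized, -0.18 on plate 1 and -0.022 with the hair value removed. The cause of these changes was not tested. No paired analysis was possible because the replicate numbers were given in accession order and pair no mice.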

Other observations

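The 2 arrays labelled as outliers, both of WT males on plate 2, were not extreme in the members. Over the 9 genes and both arrays, Creld2 of WT replicate 50 was the only value outside the range of all other mice, at 7.53 against a lowest value of 7.60. Its Chac1 value was 8.09 and that of WT replicate 75 was 6.65, within 6.30 to 9.17. Atf4 was 6.78 in replicate 50 and 7.30 in replicate 75, within 6.63 to 7.45.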
